A study of Arabidopsis thaliana with 20 samples.

Results

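The class III peroxidases of Arabidopsis thaliana numbered PRX1 to PRX60 were followed along the growing inflorescence stem. Of the 60 listed loci, 38 had a measured array probe that the platform annotation assigns to that gene alone, out of 7879 loci measured in all, and the other 22 were not analysed here. Plants of the accession Ler grew for 8 weeks in 8 h short days and were then moved to 16 h long days. Stems 10 cm long were taken on day 14 after the move and cut into sections at 0-3, 3-5, 5-7 and 7-9 cm from the tip. Stems 5 cm long were taken on day 12 and gave a section at 2-4 cm. The second sample on every array was the uppermost 2 cm of 5 cm stems, called the 0-2 cm section here. Flowers, siliques, leaves and side branches had been removed from all stems. There were 4 arrays per section, 20 in all. By the source names of the samples, the section carried Cy5 on 2 of the 4 and Cy3 on the other 2. For 3 arrays of 5-7 and 7-9 cm the description gives the other dye.

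Class III peroxidases are secreted haem enzymes of plants. With hydrogen peroxide they oxidise phenolics such as the monolignols, the building blocks of lignin, and they cross-link proteins and phenolics in the cell wall. In another cycle they produce reactive oxygen species, which can loosen the wall. In an inflorescence stem the tip elongates and the older tissue below it stops growing and lignifies its xylem and interfascicular fibres, so both kinds of reaction have a place along its length. Most members of this large family have no assigned substrate.

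All values are the authors' deposited ratios of a section over the 0-2 cm section, taken as log2, so that 1 stands for a 2-fold difference. A gene was called where the adjusted p from limma, over all 25720 tested probes, was under 0.05, and SEs are those of the same fit with n = 4 arrays per section. Whether the 4 arrays stand for separate plants is not given in the labels. The p-values then reflect only how these arrays vary, part of which may be technical. In whole stem sections, fewer cells of a type and less RNA per cell cannot be told apart. Arrays of a section correlated over the 38 peroxidases with r from 0.907 to 0.946 in the 3-5 cm section, between 0.674 and 0.904 in 5-7 cm and between 0.68 and 0.869 in 7-9 cm, and less closely in 0-3 cm (0.298 to 0.773) and 2-4 cm (0.108 to 0.765). The few genes with large ratios weigh heavily in these values. Over all probes, r was 0.744 to 0.869 in 3-5 cm, 0.574 to 0.799 in 5-7 cm and 0.651 to 0.82 in 7-9 cm. Replicates 1 and 3 of 0-3 cm correlated at -0.21 over all probes. The 3-5 cm arrays and the 2-4 cm arrays each had a scanner setting of their own, so that setting and section cannot be told apart for them. In 5-7 and 7-9 cm, replicates 3 and 4 had photomultiplier settings of 63 and 60, and replicates 1 and 2 had 62 and 60. Setting and replicate therefore cannot be told apart in these sections, and a setting term given below is also a difference between replicates.

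A few peroxidases differed strongly along the stem and most differed little. PRX21 was the highest of the 38 in the 3-5, 5-7 and 7-9 cm sections, PRX50 was next, and PRX33 was the lowest in each of them. Over the 5 sections, 20 of the 38 genes were called at least once, against 60.5% of all probes. Of these, 12 were called higher only and 8 lower only, and 0 were called in both directions. Those at 2-fold or more numbered 9, against 21% of all probes, and were PRX7, PRX10, PRX21, PRX27, PRX30, PRX31, PRX33, PRX42 and PRX50. PRX50 and PRX33 were called in all 5 sections, which 1.97% of all probes were.

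Counted by section, 2 peroxidases were called higher and 1 lower in the 0-3 cm section, where 3.47% of all probes were called, 2.18% higher and 1.29% lower. In the 2-4 cm section 5 were higher and 2 lower, with 13.5% of all probes called (6.63% higher and 6.89% lower). In 3-5 cm 5 were higher and 3 lower. That is 21.1% of the 38, beside 40.1% of all probes (19.9% higher and 20.2% lower). In 5-7 cm 9 were higher and 6 lower, which is 39.5% of the 38 beside 40% of all probes (19.7% higher and 20.2% lower). In 7-9 cm 10 were higher and 6 lower, which is 42.1% beside 43.4% (21.7% in each direction). The median of the 38 log2 ratios stayed near 0 in every section: it was -0.02, 0.07, 0.07, 0.03 and -0.08 in the 0-3, 2-4, 3-5, 5-7 and 7-9 cm sections, beside -0.017, 0.005, -0.002, 0.016 and 0.008 over all probes. The shares of called peroxidases in 5-7 and 7-9 cm lay close to those of all probes. In both 5-7 and 7-9 cm 14 genes were called, beside 33.6% of all probes. In 5-7 or 7-9 cm and not in 3-5 cm 12 genes were called, beside 19.2% of all probes, and the difference between these sections' counts was not tested. A direct test of 5-7 against 3-5 cm called 1 peroxidase, or 2.63% of the 38 beside 5.9% of all probes. The 12 genes include PRX42, whose second probe was called in 3-5 cm.

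**Figure D1:**
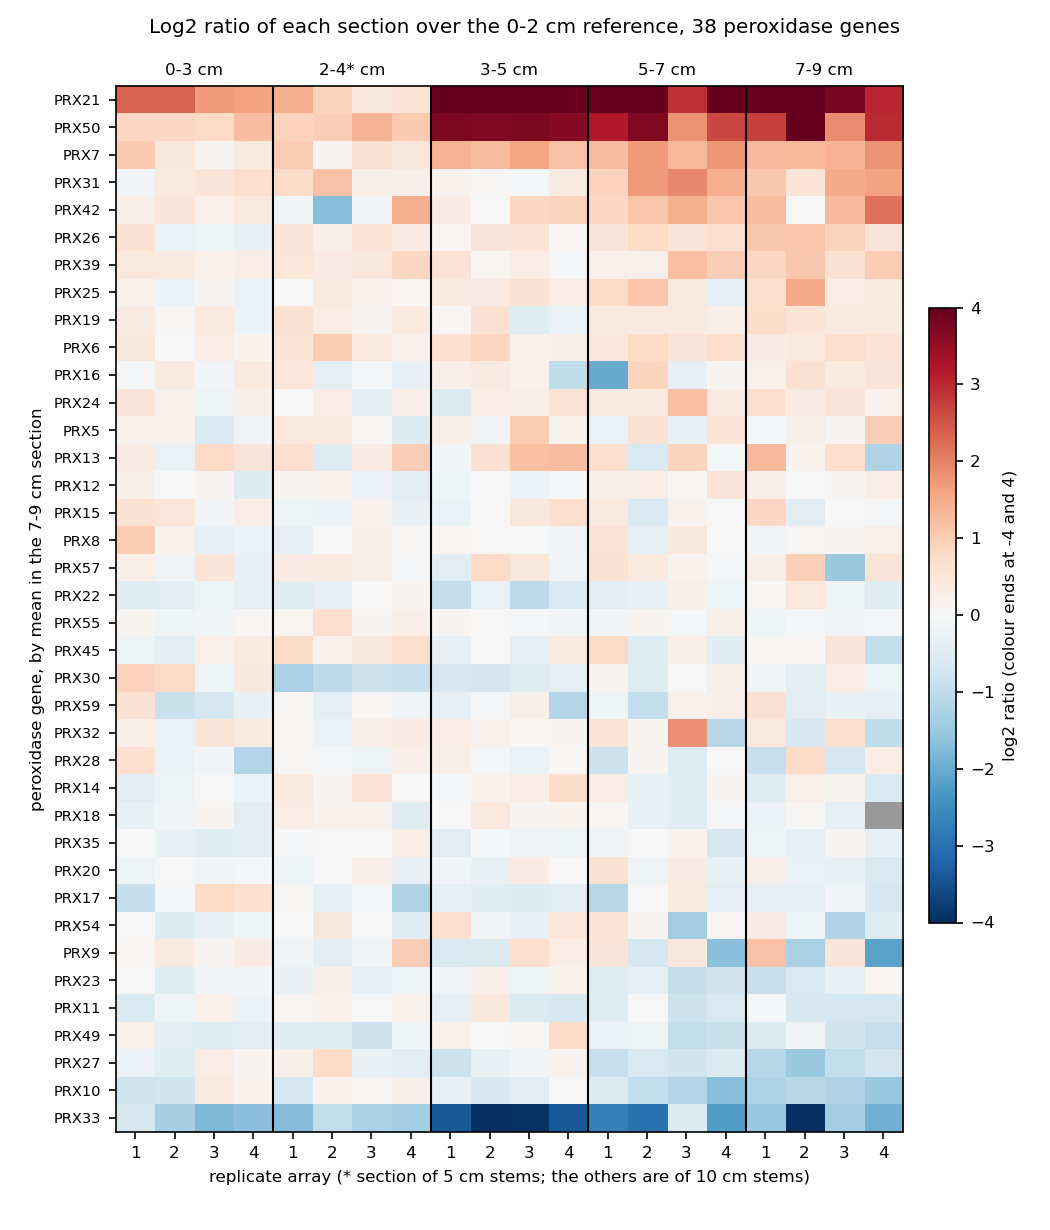
Log2 ratio over the 0-2 cm section for each of the 38 peroxidase genes (rows, in the order of their mean in 7-9 cm) on each of the 20 arrays (columns, by section and replicate). Red is higher and blue lower than the 0-2 cm section, with colours ending at -4 and 4, and the grey cell is a missing value. PRX21 and PRX50 at the top and PRX33 at the bottom stand out on the 3-5, 5-7 and 7-9 cm arrays, and most rows in between are pale.

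PRX33 (AT3G49110), also named PRXCA, is one of the apoplastic peroxidases that generate the oxidative burst after a pathogen signal, and it also acts in root growth. It was lower than in the 0-2 cm section on all 20 arrays. On the 0-3 cm arrays it read -0.64, -1.32, -1.80 and -1.68, and on the 2-4 cm arrays -1.74, -0.98, -1.30 and -1.37. In the 3-5 cm section it was lowest, at -3.39, -4.13, -3.96 and -3.38. The 5-7 cm arrays gave -2.72, -3.0, -0.55 and -2.22, and the 7-9 cm arrays -1.51, -3.98, -1.40 and -1.92. The 3-5 cm arrays lay below all arrays of 0-3 and 2-4 cm, whereas the 5-7 and 7-9 cm arrays overlapped with those of 0-3 and 2-4 cm. Replicate 2 of 7-9 cm, at -3.98, lay within the range of the 3-5 cm arrays. The fitted difference between 5-7 and 3-5 cm was not called. The fitted log2 ratio was -3.72 ± 0.34 in 3-5 cm (adjusted p = 2.17e-08), which is 13.1-fold lower. It was -2.12 in 5-7 cm and -2.20 in 7-9 cm (adjusted p = 3.37e-05 and 1.89e-05). In 0-3 cm it fell by 1.36 ± 0.34 (adjusted p = 0.0268), a call that was lost without replicate 2, 3 or 4 (-1.44, -1.14 and -1.18). In 2-4 cm it was -1.35 (adjusted p = 0.0107), and that call was lost without replicate 1, 3 or 4 (-1.27, -1.30 and -1.28). Its partner in the burst, PRX34, was not analysed here. Whether the PRX33 probe also binds PRX34 RNA was not tested.

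PRX25 and PRX17 have both been tied to lignin in the stem. PRX25 (AT2G41480) ranged from 0.30 to 1.52 on the 7-9 cm arrays, against -0.27 to 0.13 on the 0-3 cm arrays, with no overlap. Its fitted ratio in 7-9 cm was 0.72 ± 0.196 (adjusted p = 0.00501). That call was lost without replicate 2 of 7-9 cm, at 0.44, and with the 63 and 60 arrays alone, at 0.36. It was also lost without the 3 arrays of uncertain dye, at 0.52. In 5-7 cm PRX25 spread from -0.38 to 1.10 and was not called. PRX17 (AT2G22420) was called in no section. Its fitted ratio was -0.39 ± 0.243 in 7-9 cm, with a 95% interval of -0.89 to 0.12. Thus PRX25 was called higher in the oldest section, though not under these alternatives. For PRX17 the interval leaves room for a change of that size downwards only.

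PRX9 (AT1G44970) acts in the tapetum of anthers, a tissue that had been removed with the flowers. It was called in no section, and its arrays divided by dye. In 7-9 cm it read 1.18 and 0.50 with the section in Cy3, against -1.30 and -2.13 on replicates 2 and 4. The dye labels of these replicates conflict, with the section in Cy5 by source name and in Cy3 by description. In 3-5 cm, where the labels do not conflict, it read -0.60 and -0.57 in Cy5 and 0.68 and 0.29 in Cy3. The fitted difference between dyes by source name, Cy5 minus Cy3 over all sections, was -1.20 (adjusted p = 0.0031). Such a term was called for 16.2% of all probes. On the 0-3 cm arrays PRX9 stayed between 0.08 and 0.37 in both dyes.

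Among genes with no role stated here, PRX21 (AT2G37130) had the largest ratios of the family. On the 0-3 cm arrays it read 2.37, 2.35, 1.70 and 1.62, and on the 2-4 cm arrays 1.46, 0.88, 0.44 and 0.55. In 3-5 cm it stood at 5.61, 5.60, 6.15 and 5.71. The 5-7 cm arrays gave 6.13, 6.6, 2.92 and 4.99, and the 7-9 cm arrays 4.95, 4.96, 3.80 and 3.06. Every array of 3-5, 5-7 and 7-9 cm was thus above every array of 0-3 and 2-4 cm. The fitted ratio was 5.77 ± 0.379 in 3-5 cm (adjusted p = 2.02e-10), or 54.4-fold, 5.16 in 5-7 cm and 4.19 in 7-9 cm (adjusted p = 1.01e-09 and 1.45e-08). Its second probe gave 5.66, 4.04 and 4.77 in the same sections, all called. In the 0-3 cm section the probes parted: the first gave 2.01 ± 0.379 (adjusted p = 0.00359), and the second 0.73, which was not called. In 2-4 cm neither probe was called, at 0.83 and 0.83. Within the older sections, the level of this gene differed between arrays of 63 and 60 and of 62 and 60, which were also different replicates. With the 63 and 60 arrays alone it was 3.95 in 5-7 cm and 3.43 in 7-9 cm, and with the 62 and 60 arrays alone 6.36 and 4.95, called higher in all of them. The fitted setting term, 63 and 60 minus 62 and 60, was -1.97 ± 0.325 (adjusted p = 0.00604), and 0.956% of all probes had such a term called. The term of the second probe was -1.65 and was not called (adjusted p = 0.126).

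PRX50 (AT4G37520) followed next. The 0-3 cm arrays gave 0.83, 0.82, 0.80 and 1.22, and the 2-4 cm arrays 0.91, 0.97, 1.35 and 1.06. In 3-5 cm it stood at 3.73, 3.70, 3.74 and 3.65, and in 5-7 cm at 3.19, 3.70, 1.81 and 2.67. On the 7-9 cm arrays it read 2.72, 4.17, 1.90 and 2.97. As with PRX21, the arrays of the 3 lower sections of the 10 cm stems were all above those of 0-3 and 2-4 cm. Its fitted ratio was 3.70 ± 0.248 in 3-5 cm (adjusted p = 2.71e-10), or 13.0-fold, 2.84 in 5-7 cm and 2.94 in 7-9 cm (adjusted p = 1.1e-08 and 5.48e-09). The smaller ratio of 0.92 ± 0.248 in 0-3 cm (adjusted p = 0.0421) was lost without any 1 of the 4 replicates (0.76 to 1.01). In 2-4 cm the ratio was 1.07 (adjusted p = 0.00596), which was lost without replicate 3, at 0.92. The second probe was called in all 5 sections, at 1.13, 1.25, 3.20, 2.88 and 3.25 from 0-3 to 7-9 cm. Both probes were lower on the 63 and 60 arrays, with setting terms of -1.11 (adjusted p = 0.0465) and -1.28 (adjusted p = 0.012). PRX51, its neighbour and near relative, was not analysed here.

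PRX7 (AT1G30870) rose in the older sections by a smaller and steadier amount. Its arrays gave 1.05, 0.45, 0.10 and 0.38 in 0-3 cm, and 1.02, 0.12, 0.60 and 0.45 in 2-4 cm. The 3-5 cm arrays gave 1.40, 1.28, 1.59 and 1.18, and the 5-7 cm arrays 1.22, 1.70, 1.34 and 1.76. In 7-9 cm they were 1.30, 1.34, 1.40 and 1.79. No array of 3-5, 5-7 or 7-9 cm was as low as the highest of 0-3 and 2-4 cm. The fitted ratios were 1.36 ± 0.149, 1.5 and 1.46 in 3-5, 5-7 and 7-9 cm (adjusted p = 2.5e-07, 6.86e-08 and 8.49e-08). PRX7 was 0.49 in 0-3 cm, which did not pass (adjusted p = 0.0727). In 2-4 cm it was 0.55 (adjusted p = 0.0172), which was lost without replicate 1, 3 or 4 (0.42, 0.49 and 0.54).

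PRX31 (AT3G28200) and PRX42 (AT4G21960, also named PRXR1) were highest further down. PRX31 read -0.11, 0.43, 0.50 and 0.67 in 0-3 cm, 0.74, 1.18, 0.22 and 0.24 in 2-4 cm, and 0.15, 0.05, -0.05 and 0.36 in 3-5 cm. Its 5-7 cm arrays gave 0.93, 1.70, 1.91 and 1.44, and its 7-9 cm arrays 1.08, 0.55, 1.5 and 1.61. All arrays of 5-7 and 7-9 cm were above all of 3-5 cm, and the 2-4 cm arrays overlapped with those of 5-7 and 7-9 cm. The 0-3 cm arrays overlapped with those of 7-9 cm and lay below those of 5-7 cm. The fitted ratio was 1.49 ± 0.191 in 5-7 cm (adjusted p = 2.08e-06) and 1.19 in 7-9 cm (adjusted p = 3.15e-05), against 0.13 in 3-5 cm (adjusted p = 0.643). In 2-4 cm it was 0.60 (adjusted p = 0.0424), which was lost without replicate 1, 2 or 4 (0.55, 0.39 and 0.72).

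PRX42 was more variable. Its arrays gave 0.22, 0.50, 0.20 and 0.42 in 0-3 cm, -0.11, -1.69, -0.12 and 1.46 in 2-4 cm, and 0.33, 0.01, 0.85 and 0.90 in 3-5 cm. They gave 0.84, 1.10, 1.45 and 1.10 in 5-7 cm and 1.27, -0.03, 1.30 and 2.18 in 7-9 cm. The 5-7 cm arrays lay above those of 0-3 cm, and 1 array of 7-9 cm lay below all of 0-3 cm. The fitted ratio was 1.12 ± 0.305 in 5-7 cm (adjusted p = 0.00536) and 1.18 in 7-9 cm (adjusted p = 0.00328). With the 62 and 60 arrays alone these were 0.97 and 0.62 and neither was called. The 7-9 cm call was also lost without replicate 4, at 0.74, and without the 3 arrays of uncertain dye, at 0.98. The second probe was called in 3-5, 5-7 and 7-9 cm, at 0.61, 0.86 and 0.49.

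PRX10 (AT1G49570) and PRX27 (AT3G01190) were lower in the oldest sections. PRX10 read -0.82, -0.80, 0.40 and 0.15 in 0-3 cm, -0.69, 0.14, 0.05 and 0.23 in 2-4 cm, and -0.33, -0.64, -0.46 and -0.01 in 3-5 cm. Its 5-7 cm arrays gave -0.56, -1.0, -1.18 and -1.69, and its 7-9 cm arrays -1.23, -1.11, -1.20 and -1.52. The 7-9 cm arrays were below all arrays of 0-3, 2-4 and 3-5 cm, and those of 5-7 cm overlapped with them. It fell by 1.11 ± 0.17 in 5-7 cm (adjusted p = 2.02e-05) and by 1.26 in 7-9 cm (adjusted p = 3.35e-06). The dye term of PRX10 was called too, at -0.47 (adjusted p = 0.0402), and the fit takes it into account.

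PRX27 read -0.24, -0.50, 0.30 and 0.10 in 0-3 cm, 0.24, 0.81, -0.31 and -0.42 in 2-4 cm, and -0.85, -0.30, -0.11 and 0.14 in 3-5 cm. In 5-7 cm it read -0.93, -0.60, -0.80 and -0.57, and in 7-9 cm -1.15, -1.5, -1.0 and -0.78. The arrays of 5-7 and 7-9 cm were all below those of 0-3 and 2-4 cm, with 1 of the 3-5 cm arrays among them. It fell by 0.73 ± 0.19 in 5-7 cm (adjusted p = 0.00411) and by 1.11 in 7-9 cm (adjusted p = 6.63e-05). The second probe gave -0.82 in both sections. With the 63 and 60 arrays alone, PRX27 was -0.69 in 5-7 cm and was not called.

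PRX30 (AT3G21770) differed in the middle of the range and not at its end. It read 0.93, 0.75, -0.20 and 0.45 in 0-3 cm, -1.31, -1.05, -0.86 and -0.93 in 2-4 cm, and -0.68, -0.76, -0.53 and -0.37 in 3-5 cm. The 5-7 cm arrays gave 0.10, -0.50, 0.00 and 0.22, and the 7-9 cm arrays -0.12, -0.41, 0.30 and -0.19. All arrays of 2-4 and 3-5 cm lay below all of 0-3 cm. The fitted ratio was -1.04 ± 0.164 in 2-4 cm (adjusted p = 0.000216) and -0.59 in 3-5 cm (adjusted p = 0.00676), and both calls held under all alternatives run. None of these could part section from scanner setting. The Cy5 setting was 59 in 2-4 cm and 61 in 3-5 cm, against 60 in the other sections. The ratios of 0.48 in 0-3 cm, -0.04 in 5-7 cm and -0.11 in 7-9 cm did not pass.

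**Figure D2:**
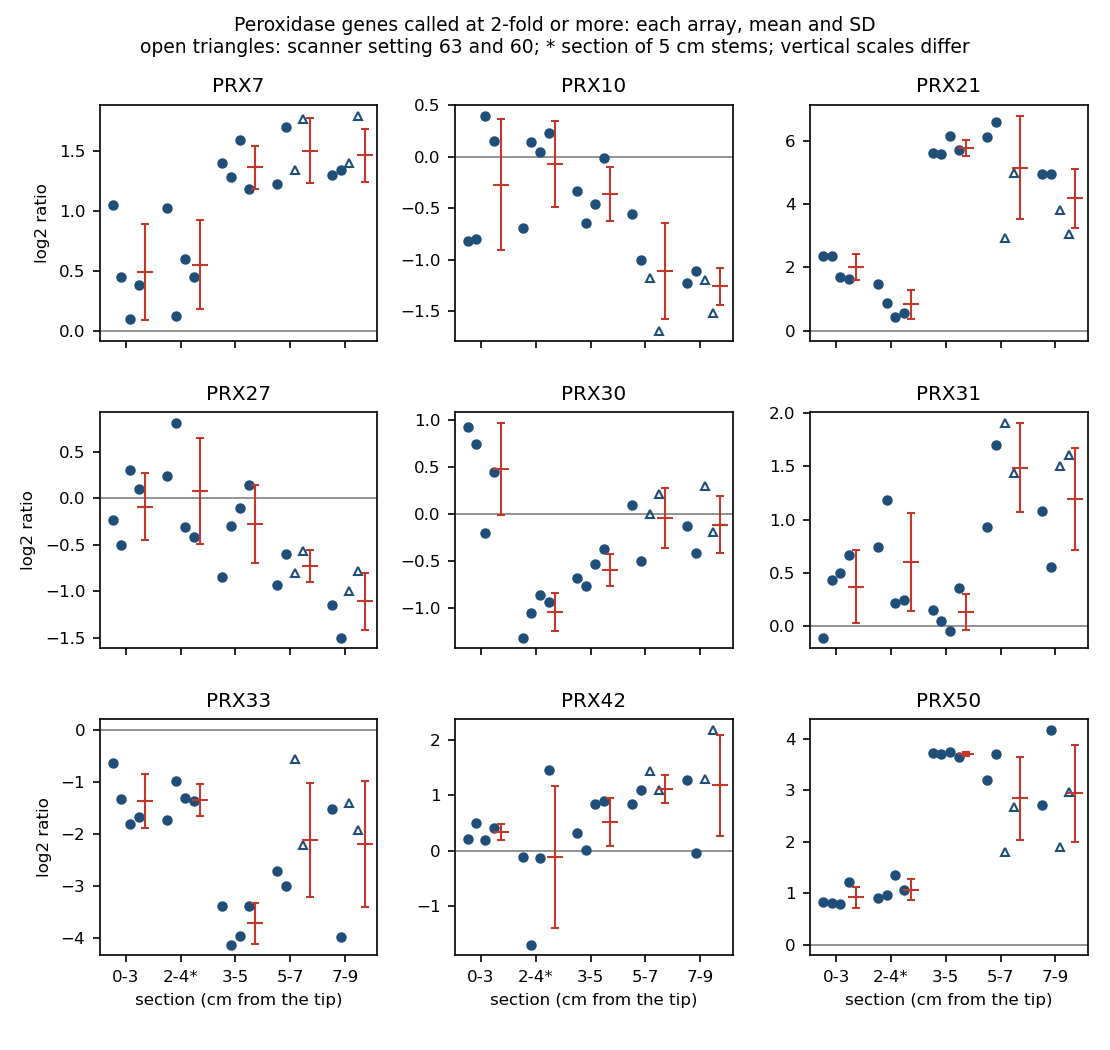
Log2 ratio over the 0-2 cm section (vertical, scales differ by panel) for the 9 peroxidase genes called at 2-fold or more, by section (horizontal, from the tip). Points are arrays, in replicate order, with open triangles for arrays scanned at 63 and 60, and red bars are the mean and SD of the 4 arrays. For PRX7, PRX21 and PRX50 the points of 3-5, 5-7 and 7-9 cm all lie above those of 0-3 and 2-4 cm, and for PRX33 the 3-5 cm points lie below both.

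The other 10 genes called in some section, beside PRX25, were all under 2-fold. PRX6 (AT1G24110) was higher in 4 of the 5 sections, at 0.54 in 2-4 cm, 0.47 in 3-5 cm, 0.62 in 5-7 cm and 0.50 in 7-9 cm. Leaving out replicate 2 ended its calls in 2-4 cm (0.41) and 3-5 cm (0.38). Its 7-9 cm call was lost with the 62 and 60 arrays alone (0.37) and without the arrays deposited in steps of 0.1 (0.38). PRX39 was higher at 0.53 in 2-4 cm, 0.64 in 5-7 cm and 0.89 in 7-9 cm. Its 2-4 cm call was lost without replicate 1, 3 or 4 (0.55, 0.54 and 0.41), and in 5-7 cm the 62 and 60 arrays alone gave 0.20. PRX26 was higher at 0.61 in 5-7 cm and 0.90 in 7-9 cm, where its arrays ran from 0.51 to 1.12, and its 5-7 cm call was lost with the 63 and 60 arrays alone, at 0.57. PRX13 was called only in 3-5 cm, at 0.73, and not without replicate 2, at 0.60. Its dye term was -0.96 (adjusted p = 0.00287). PRX24 was called only in 5-7 cm, at 0.60, and not without replicate 3, at 0.40, or with the 62 and 60 arrays alone, at 0.40. PRX19 was called only in 7-9 cm, at 0.52, and not without replicate 1, at 0.41, or with the 63 and 60 arrays alone, at 0.40.

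On the lower side, PRX22 and PRX23 are neighbouring genes that were called in different sections. PRX22 was lower in 3-5 cm, at -0.73 ± 0.16 (adjusted p = 0.000818), and was -0.16 in 5-7 cm and -0.06 in 7-9 cm. PRX23 was 0.02 in 3-5 cm and was lower in 5-7 and 7-9 cm, at -0.67 ± 0.152 and -0.44 (adjusted p = 0.0012 and 0.0218). The 7-9 cm call of PRX23 was lost without replicate 1 or 2, at -0.29 and -0.36, and with the 63 and 60 arrays alone, at -0.12. Its 5-7 cm call was lost with the 62 and 60 arrays alone, at -0.46. PRX49 was lower at -0.58 and -0.61 in 5-7 and 7-9 cm. The 5-7 cm call of PRX49 was lost without replicate 3 or 4 (-0.44 and -0.46), and the 7-9 cm call without replicate 4 (-0.48). Both were lost with the 62 and 60 arrays alone, at -0.23 and -0.35. PRX11 was lower at -0.49 and -0.53. Its 5-7 cm call was lost without replicate 1, 3 or 4 (-0.50, -0.37 and -0.42) and its 7-9 cm call without replicate 2, 3 or 4 (-0.48, -0.49 and -0.46), and with the 62 and 60 arrays alone both were lost, at -0.24 and -0.37. The second probe of PRX11 was called in neither section, at -0.34 and -0.24. The other neighbours that were both measured, PRX14 and PRX15, were called in no section.

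The 18 genes whose locus probe was called in no section were PRX5, PRX8, PRX9, PRX12, PRX14 to PRX18, PRX20, PRX28, PRX32, PRX35, PRX45, PRX54, PRX55, PRX57 and PRX59. Their fitted log2 ratios ran from -0.47 to 0.51 over the 5 sections. PRX18 lacked a value on 1 of the 7-9 cm arrays. PRX28, PRX32 and PRX45 had called dye terms of 0.61, -0.75 and -0.54, as had the second probe of PRX35 at 0.50. That second probe was also called higher in 5-7 cm, at 0.50 ± 0.182 (adjusted p = 0.0334), where the first stood at -0.17. For the other 17 genes a change was not detectable with 4 arrays per section, which does not show that there was none.

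Setting sections against each other leaves out the 0-2 cm section. In 3-5 against 0-3 cm of the same stems, 3 peroxidases were higher and 2 lower, which is 13.2% of the 38 beside 17% of all probes (8.67% higher and 8.35% lower). PRX21 rose by 3.76 ± 0.536 (adjusted p = 6.61e-05), PRX50 by 2.78 ± 0.351 (adjusted p = 2.12e-05) and PRX7 by 0.87 ± 0.211 (adjusted p = 0.00654). PRX33 fell by 2.36 ± 0.481 (adjusted p = 0.00174) and PRX30 by 1.07 ± 0.232 (adjusted p = 0.00299). The change of PRX7 was 0.61 and not called once each array was centred and scaled to a common spread. The step from 3-5 to 5-7 cm brought 1 call, or 2.63% of the 38 beside 5.9% of all probes, with 2.43% called higher. It was PRX31, higher by 1.37 ± 0.27 (adjusted p = 0.00358). With the 62 and 60 arrays of the older sections alone it was 1.19 and not called. PRX33 gave a difference of 1.59 ± 0.481 for 5-7 over 3-5 cm, just outside the threshold (adjusted p = 0.0534). That difference was 2.33 and called with the 63 and 60 arrays alone, and 0.86 and not called with the 62 and 60 arrays alone. PRX50 was at -0.86 and not called, at -1.46 and called with the 63 and 60 arrays alone, and at -0.26 and not called with the 62 and 60 arrays alone.

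Between 7-9 and 5-7 cm no peroxidase was called by limma, beside 0.00389% of all probes. At an unadjusted p under 0.05 there was 1, PRX16, at 0.77 by its first probe and 0.02 by its second. The first probe read -2.03 on 1 array of 5-7 cm and from -0.32 to 0.90 on the other 3. With the setting as a fixed term or with array weights the count of called peroxidases was 0 as well. For PRX21 this last difference was -0.97 with a 95% interval of -2.08 to 0.15, with the second probe at 0.73, and for PRX33 it was -0.08 with an interval of -1.08 to 0.92, so sizeable changes in these genes remain possible.

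Over the whole length of the 10 cm stems, 7-9 against 0-3 cm, 6 peroxidases were higher and 2 lower, which is 21.1% of the 38 beside 21.8% of all probes (11.4% higher and 10.3% lower). PRX21 rose by 2.18 ± 0.536 (adjusted p = 0.00525), PRX50 by 2.02 ± 0.351 (adjusted p = 0.000256) and PRX7 by 0.97 ± 0.211 (adjusted p = 0.00212). PRX26 rose by 0.94, PRX31 by 0.81 and PRX25 by 0.78, and PRX27 fell by 1.02 and PRX10 by 1.0. The second probe of PRX21 gave 4.04 (adjusted p = 5.11e-05). The first was 0.77 and not called once arrays were centred and scaled, a step that put PRX50 at 1.18, still called, and ended the calls of PRX7 (0.56), PRX10 (-0.69), PRX25 (0.68), PRX27 (-0.78) and PRX31 (0.41). PRX31 was also lost without replicate 1 or 2 of 0-3 cm (0.63 and 0.83) or replicate 1, 3 or 4 of 7-9 cm (0.84, 0.69 and 0.67). PRX25 was lost without any replicate of 0-3 cm (0.72 to 0.85) and without replicate 1 or 2 of 7-9 cm (0.80 and 0.51). With the 63 and 60 arrays alone PRX25 (0.42), PRX26 (0.75) and PRX27 (-0.80) were not called, nor was PRX31 with the 62 and 60 arrays alone (0.45). PRX33 was at -0.84 and was not called (adjusted p = 0.235).

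Stems of different length were compared between the 3-5 cm section of 10 cm stems and the 2-4 cm section of 5 cm stems. Here 3 peroxidases were higher and 1 lower, which is 10.5% of the 38 beside 11.2% of all probes (5.8% higher and 5.45% lower). PRX21 rose by 4.93 ± 0.536 (adjusted p = 1.01e-05), PRX50 by 2.63 ± 0.351 (adjusted p = 8.7e-05) and PRX7 by 0.81 ± 0.211 (adjusted p = 0.0153), and PRX33 fell by 2.37 ± 0.481 (adjusted p = 0.00277). The change of PRX7 was lost without replicate 2 of 2-4 cm (0.62), without replicate 3 of 3-5 cm (0.69) and after centring and scaling (0.51). Centring and scaling also ended the call of PRX33, at -1.60. All 4 genes were also called in 3-5 against 0-3 cm, a comparison that shares the 3-5 cm arrays. PRX30, which was called there, differed by 0.45 here and was not called (adjusted p = 0.236).

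**Figure D3:**
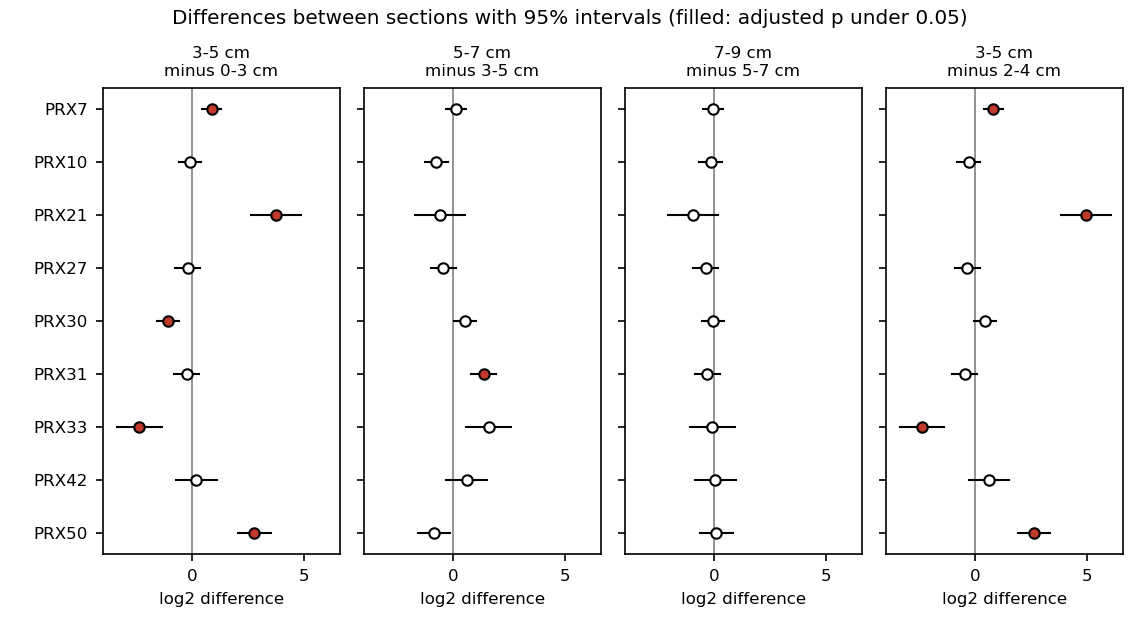
Log2 difference between sections (horizontal) with its 95% interval for the 9 peroxidase genes called at 2-fold or more, in 4 comparisons, with filled points for an adjusted p under 0.05. PRX7, PRX21, PRX50 and PRX33 are filled in 3-5 against 0-3 cm and against 2-4 cm, PRX31 alone is filled in 5-7 against 3-5 cm, and none is filled in 7-9 against 5-7 cm.

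A second probe was available for 10 of the 38 genes, and these probes read the same genes on the same arrays. Over the 5 sections this gave 50 pairs of fitted ratios. In 14 pairs both probes were called in the same direction, in 0 in opposite directions, in 6 only 1 was called and in 30 neither. The median absolute difference between the probes was 0.245, and the largest, 1.28, was that of PRX21 in 0-3 cm.

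**Figure D4:**
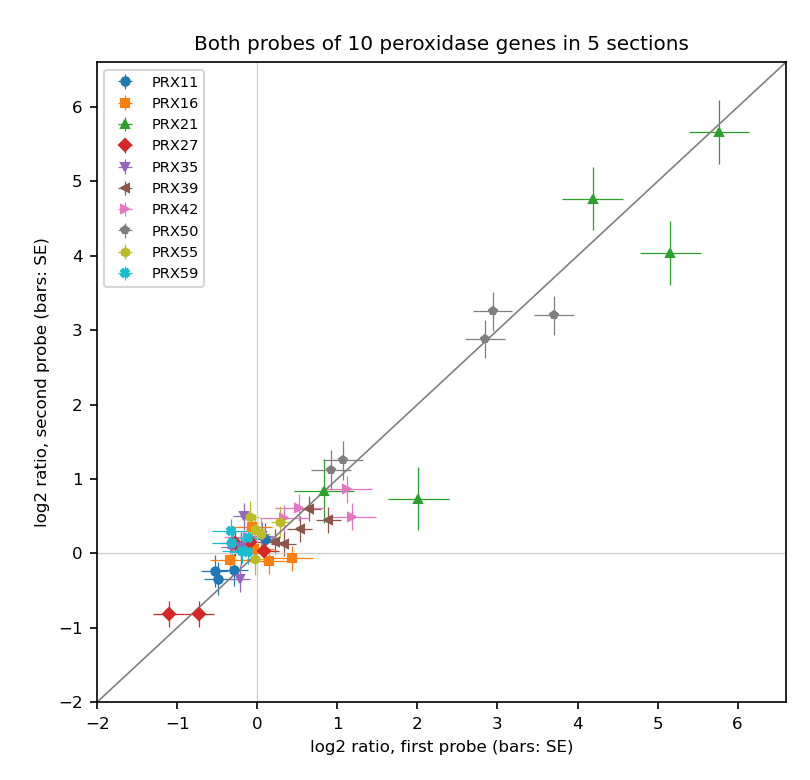
Fitted log2 ratio of the second probe (vertical) against the first probe (horizontal) of the 10 peroxidase genes with 2 probes, 1 point per section, with SEs as bars and the line of equality in grey. Over both probes PRX21 runs from 0.73 to 5.77 and PRX50 from 0.92 to 3.70. The points of PRX21 in 0-3 and 5-7 cm lie well below the line. The other 8 genes lie between -1.11 and 1.18.

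Most of the genes with large ratios had a probe annotated with a cDNA accession. Such an accession was listed for 21 of the 38 genes, and 7 of the 21 were called at 2-fold or more in 7-9 cm, against 1 of the 17 without one. Over all loci measured, 19.5% with an accession and 12.2% without were called at 2-fold or more there, and 14.5% of all probes. The genes of the family were also unevenly covered. All 13 listed genes of chromosome 2 were measured, with 9 of 13 on chromosome 1, 7 of 10 on chromosome 3, 5 of 15 on chromosome 4 and 4 of 9 on chromosome 5.

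Of the 13 peroxidases numbered PRX61 to PRX73, 5 were measured, and none was called higher in any section by the probe that stood for the locus. In 7-9 cm 3 of the 5 were lower, beside 21.7% of all probes. They were PRX63 at -0.82 ± 0.139 (adjusted p = 5.66e-05), PRX62 at -0.68 (adjusted p = 0.000319) and PRX71, which restrains growth and adds to stem lignin, at -0.43 (adjusted p = 0.0489). The second probe of PRX62 was -0.81 there, and in 0-3 cm it was 0.63 and called higher (adjusted p = 0.0416), where the first was -0.16. Their median log2 ratio in 7-9 cm was -0.43, beside 0.008 over all probes. PRX72, a peroxidase of lignification, was not called in any section and stood at 0.23 in 7-9 cm.

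Few genes of the reactions around these enzymes had a measured probe that the platform annotation assigns to that gene alone. The annotation matched 8302 probes to 1 gene, whereas 25739 spots had a value. A gene counted here as not measured may therefore have had a spot without annotation. Of 19 genes of monolignol synthesis only CCR2, a cinnamoyl-CoA reductase, was measured, and it was lower with distance from the tip. It stood at -0.46, -0.84, -0.96, -1.93 and -2.41 in 0-3, 2-4, 3-5, 5-7 and 7-9 cm, called in all but the first, with an SE of 0.175 (adjusted p = 5.9e-10 in 7-9 cm). Of 19 genes that remove hydrogen peroxide inside cells 2 were measured, SAPX and TAPX, ascorbate peroxidases of the chloroplast. Both were lower in 3-5, 5-7 and 7-9 cm, at -0.79, -0.89 and -0.88 for SAPX and -0.54, -0.90 and -0.98 for TAPX. Of 15 markers of secondary walls, xylem and fibres only IRX10, a xylan synthase, was measured, and it was not called in any section (0.08 in 7-9 cm). The lists of laccases, NADPH oxidases, superoxide dismutases and markers of epidermis, phloem, shoot meristem and floral organs had 0 members with such an annotated probe. The cell types of the sections could therefore not be checked against their defining markers, and the part of a changed mix of cell types in the peroxidase results was not tested.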

How the data were processed

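RNA of 5 stem sections was hybridised against the 0-2 cm section on 20 two-colour arrays of 28800 spots. The deposited values are log ratios, taken here as log2; the sources used here give neither their base nor the authors' background correction and normalization, and spot signals were not used here. The number of arrays limits precision. The direction, section over 0-2 cm section, follows the titles. Loci came from the platform annotation and names from RefSeq.

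Probes with at least 3 of 4 arrays in every section were tested (25720) with limma 3.58.1 in R 4.3.3: section means plus a dye term, eBayes, 14 residual degrees of freedom, Benjamini-Hochberg over all probes. The 0-2 cm sample has no spread of its own in this fit. Arrays 5-7 cm replicate 4 and 7-9 cm replicates 2 and 4 carry conflicting dye labels, and the source names were used. The title of 3-5 cm replicate 1 was followed where its source name has another stem length.

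Genes called at 2-fold or more have every array printed, the others a range. Where a locus had 2 probes, the one on most arrays stood for it. At most 3 genes of each further list were named, those with the largest called ratios in 7-9 cm; PRX72, IRX10 and second probes were named beyond that. Members and lists were chosen with earlier results of these data known.

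On simulated data for the 7-9 cm section, with 200 of 25720 probes changed, 71 of 100 were recovered at a log2 size of 1 and 99 of 100 at 2, with 12 false calls. The simulated spread was independent between arrays and held no dye or setting effects. In the real section 43.4% of all probes were called. The simulated counts therefore do not give the power or error of the real tests. Alternatives covered dyes, centring, scaling, array weights, arrays, scanner setting, filters, moderation, probes and a replicate block. Deviations of same-numbered arrays from their section means correlated from -0.26 to 0.455 (median 0.097, 20 of 40 pairs over 0.1). Those of other-numbered arrays correlated from -0.389 to 0.32 (median -0.046, 42 of 120). With the dye effect removed, same-numbered arrays gave -0.222 to 0.248 (median -0.067, 9 of 40) and the others -0.248 to 0.257 (median 0.015, 33 of 120). Dye followed the replicate number within sections, so removing its effect may also remove part of a pairing. Whether the replicate numbers pair the arrays was not settled.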

Additional observations from a re-analysis of the deposited data

Results flagged for a closer look

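In 10 of 239 sets of 4 arrays, 1 array stood far from the other 3; chance alone gives about 1 in 20, or 12. Of called genes, PRX50 read 1.22 on replicate 4 of 0-3 cm against 0.80 to 0.83 on the others, PRX24 read 1.21 on replicate 3 of 5-7 cm against 0.38 to 0.40, and PRX11 read -0.09 on replicate 1 of 7-9 cm against -0.70 to -0.65. PRX26 and PRX49 stood apart on replicate 1 of 0-3 cm, at 0.62 against -0.31 to -0.20 and at 0.21 against -0.50 to -0.44. On replicate 4 of 2-4 cm the second probe of PRX21 read 1.87 against 0.38 to 0.59, and PRX35 read 0.30 against -0.04 to 0.01. The rest were PRX16 on replicate 4 of 3-5 cm (-1.01 against 0.18 to 0.37), PRX59 on replicate 1 of 7-9 cm (0.62 against -0.45 to -0.30) and the second probe of PRX55 on replicate 2 of 7-9 cm (1.21 against 0.16 to 0.30).

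In 5 cases 2 sections differed by limma's test of the difference and lay on opposite sides of the 0-2 cm section. PRX30 differed by -1.07 between 3-5 cm (-0.59) and 0-3 cm (0.48). PRX26 differed by 0.94 between 7-9 cm (0.90) and 0-3 cm (-0.04), and PRX25 by 0.78 between 7-9 cm (0.72) and 0-3 cm (-0.07). The second probe of PRX27 differed by -0.95 between 5-7 cm (-0.82) and 3-5 cm (0.14), and by -0.98 between 7-9 cm (-0.82) and 0-3 cm (0.16). In each of these 5 cases the second section named did not itself pass the test against the 0-2 cm section.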

How the results depend on the processing

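Of 1398 recomputed values of the 67 called peroxidase results, 1273 kept their call, 125 lost it and 0 reversed; 30 of the 67 kept it under every alternative. With 1 array left out, counts of called genes ran from 1 to 2 in 0-3 cm (3 with all arrays), 3 to 5 in 2-4 cm (7), 8 to 8 in 3-5 cm (8), 12 to 15 in 5-7 cm (15) and 13 to 16 in 7-9 cm (16). For differences they ran from 5 to 6 in 3-5 against 0-3 cm (5), 1 to 5 in 5-7 against 3-5 cm (1), 0 to 0 in 7-9 against 5-7 cm (0), 6 to 8 in 7-9 against 0-3 cm (8) and 3 to 5 in 3-5 against 2-4 cm (4). Centring and scaling gave 5 in 0-3 cm, 13 in 2-4 cm and 2 in 7-9 against 0-3 cm. The last count was 5 without the 3 arrays of doubtful dye and 5 with the 63 and 60 arrays of the older sections alone. In 5-7 against 3-5 cm the count was 2 without the doubtful arrays, with median centring, with the mean of the probes of a locus, with the other probe (chosen after seeing the data) and with a replicate block. It was 5 with array weights or a scanner setting block, 8 with the 63 and 60 arrays alone and 0 with the 62 and 60 arrays alone. Of the 67 called results the replicate block ended 1, PRX31 in 2-4 cm. The causes were not tested.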
